A study of Mus musculus with 12 samples.

Results

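Lysosomes digest what a cell takes up, and the genes described here encode 46 of their parts: lysosomal membrane proteins, lumenal hydrolases with their helper proteins, and subunits of the proton pump. The 46 were chosen by name and function, with earlier results of these data known, from the 56953 genes listed in the tables. All 46 were found, and all 46 were counted deeply enough to be tested in every comparison. They comprise 7 membrane proteins, 3 proteins of cholesterol handling, 10 glycosidases, 3 sulfatases, 4 proteins of sphingolipid breakdown, 7 proteases, nucleases and other lumenal proteins, and 12 pump subunits. The pump subunits divide into 6 of the cytosolic V1 sector, 4 of the membrane-embedded V0 sector and 2 accessory proteins.

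To compare embryonic with adult-derived macrophages of the bone marrow, RNA of sorted myeloid cells was sequenced in 12 libraries, 3 in each of 4 groups. All cells came from female C57BL/6J mice, 8 weeks old, of the genotype Rank cre/+;R26.eYFP fl/+, so the monocytes carried the Cre and reporter alleles too. Cre from the Rank locus had switched on the reporter eYFP in cells that trace back to the embryo (eYFP+ macrophages), whereas eYFP- macrophages descend from adult hematopoietic stem cells. Both were gated as F4/80hi CD206+ VCAM1+, and Ly6Chi and Ly6Clo monocytes were gated as CD11b+ and split by Ly6C. No group lacked the Cre allele, so its own effect was not measured. No label says whether replicates are separate mice, and p-values here measure the spread between libraries.

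The vacuolar proton pump uses ATP to acidify the lysosome, and acid activates most of the hydrolases. Soluble enzymes travel there on sorting receptors, whereas heavily glycosylated proteins such as LAMP1 and LAMP2 line the inside of its membrane. Macrophages of the bone marrow engulf the nuclei cast out by maturing red cells and senescent cells, a diet of protein, lipid, DNA and iron. Many lysosomal genes carry the E-box CACGTG near their start, the type of site bound by the factors TFEB, TFE3 and MITF.

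Depth ran from 26390927 to 48618187 counts per library, with 16434 to 27634 genes detected. The lowest of each was that of Ly6Clo monocytes 2, whose group otherwise had 24769 and 22254 genes detected. No molecular identifiers were described, so reads are not independent molecules. The 12 macrophage identity genes (Vcam1, C1qa and others) summed to 55872 to 73019 TPM (counts per gene length, scaled to the same total in each library) in macrophages and 602 to 3445 in monocytes, as the labels say. Libraries eYFP+ macrophages 1 and Ly6Clo monocytes 2 stood apart from the others of their groups by the GC content of the genes. The 16 members with the highest GC content, 52.9% to 59.8%, were at a median of -0.57 (log2 ratio to the mean of the group's other libraries) in eYFP+ macrophages 1 and -1.39 in Ly6Clo monocytes 2. In the 15 members of lowest GC content this median was 0.58 and -0.12, respectively. Of the 16, Cd68, Cd63, Atp6v0b and Atp6v0d1 lay above 0 in Ly6Clo monocytes 2, at 1.88, 0.72, 1.42 and 0.35. In the 3 Ly6Chi libraries the medians of members of low, middle and high GC content stayed within -0.09 to 0.08. Counts of calls without both libraries are given with each comparison.

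**Figure D1:**
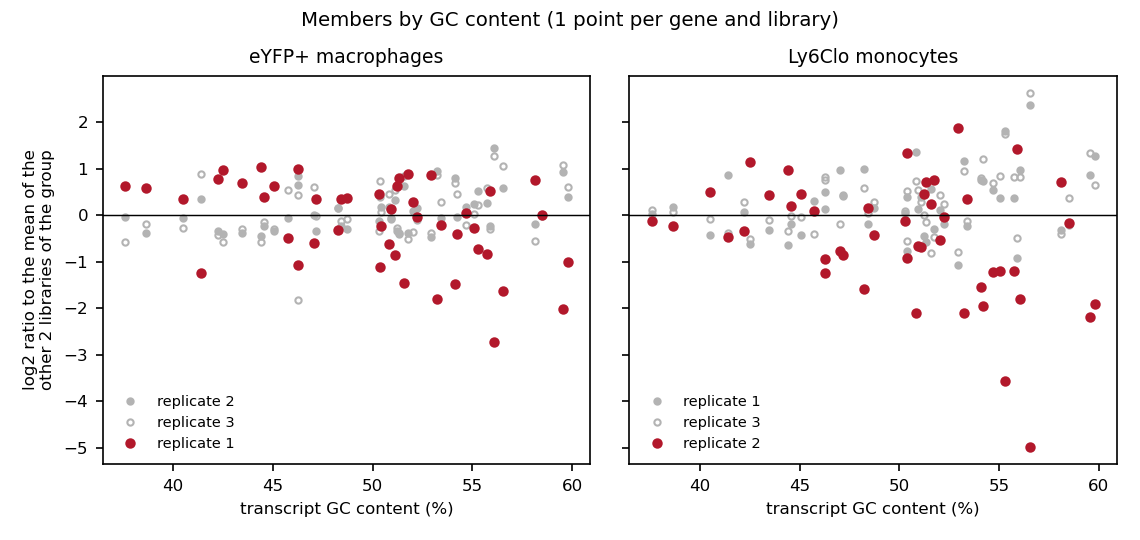
Each point is 1 member in 1 library: transcript GC content in percent (x axis) against the log2 ratio of its normalized count to the mean of the other 2 libraries of its group (y axis), for eYFP+ macrophages (left) and Ly6Clo monocytes (right). In eYFP+ macrophages 1 and Ly6Clo monocytes 2 (red) the GC-rich members lie mostly below 0, down to -4.97 in the latter, where Arsa was at 1.12 TPM.

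The promoters of the members show what many of them have in common in sequence. A window from 250 bases before to 50 bases after the transcription start was taken from RefSeq (mouse build GRCm38.p6), which held 41 of the 46 members. Searched on both strands, the 7 letters TCACGTG, which include the E-box CACGTG, were present in 12 of the 41 windows (29.3%) and in 874 of 17491 windows of protein-coding genes (5%). CACGTG alone occurred in the same number of members, against 8.91% of protein-coding genes. Before the start only, 11 members (26.8%) held TCACGTG, against 4.16%. The 12 were Lamp1, Mcoln1, Cln3, Gla, Glb1, Gaa, Naglu, Arsa, Lgmn, Atp6v1a, Atp6v0b and Atp6v0d1. Stretches of 90 bases are shown for 6 of them, chosen to represent membrane proteins, glycosidases, a protease and the pump. Sequences are on the strand of the gene, 5′ to 3′, and capitals mark CACGTG.
Lamp1: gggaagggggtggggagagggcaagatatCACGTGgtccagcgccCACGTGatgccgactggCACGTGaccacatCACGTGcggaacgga
Mcoln1: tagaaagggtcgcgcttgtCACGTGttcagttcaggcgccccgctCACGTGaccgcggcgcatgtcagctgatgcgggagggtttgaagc
Glb1: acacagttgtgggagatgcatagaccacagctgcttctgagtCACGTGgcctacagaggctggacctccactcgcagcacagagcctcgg
Naglu: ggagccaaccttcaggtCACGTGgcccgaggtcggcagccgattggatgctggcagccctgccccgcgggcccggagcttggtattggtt
Lgmn: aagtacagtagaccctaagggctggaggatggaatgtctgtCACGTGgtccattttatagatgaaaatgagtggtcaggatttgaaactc
Atp6v0b: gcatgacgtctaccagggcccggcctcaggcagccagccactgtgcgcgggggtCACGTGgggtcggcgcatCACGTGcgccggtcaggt

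The stretches lie at chr8:13159071-13159160 (+) for Lamp1, chr8:3500429-3500518 (+) for Mcoln1, chr9:114400988-114401077 (+) for Glb1, chr11:101070004-101070093 (+) for Naglu, chr12:102439093-102439182 (-) for Lgmn and chr4:117887330-117887419 (-) for Atp6v0b. Lamp1 held 4 copies, the first beginning 61 bases upstream of the start (position -61) and the last at -15. Mcoln1 and Atp6v0b held 2 copies each, beginning at -71 and -36. Glb1, Naglu and Lgmn held 1 copy each, at -48, -73 and -49. A match of letters is a description of the sequence and says nothing of binding in these cells.

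Levels of the members differed widely. The 3 highest in eYFP+ macrophages were Pld3, a lysosomal exonuclease, at a mean of 3755 TPM, the asparaginyl endopeptidase gene Lgmn at 2931 TPM and Psap, the precursor of the saposins that assist sphingolipid hydrolases, at 2720 TPM. The same 3 genes led in eYFP- macrophages, there with Psap first at 3787 TPM. In Ly6Chi monocytes Psap led at 2632 TPM, followed by the progranulin gene Grn at 1129 TPM and Lamp1 at 1067 TPM. In Ly6Clo monocytes Cd68 was first at 1422 TPM, ahead of Psap at 1200 TPM and Gm2a at 1043 TPM. That first place rested on Ly6Clo monocytes 2, in which Cd68 was at 2683 TPM against 766 and 816 TPM in the other Ly6Clo libraries. The lowest member in each group was Gla, the alpha-galactosidase gene, with means of 2.97 to 5.39 TPM. At least 100 TPM was reached by 34 members in eYFP+ macrophages, 32 in eYFP-, 22 in Ly6Chi and 21 in Ly6Clo cells.

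Summed over the 46 members, transcripts reached 27160 ± 1722 TPM in eYFP+ macrophages, 25116 ± 2107 TPM in eYFP- macrophages, 13191 ± 440 TPM in Ly6Chi monocytes and 10751 ± 674 TPM in Ly6Clo monocytes (mean ± SD, n = 3 libraries each). All 6 macrophage libraries lay above all 6 monocyte libraries, and the ranges of eYFP+ and eYFP- libraries overlapped. The members thus took between 1.03% and 2.84% of a library. Proteases, nucleases and other lumenal proteins accounted for much of that difference in sum, with 8639 to 10702 TPM in macrophages and 1459 to 1802 TPM in monocytes. The pump subunits summed to 2730 to 3449 TPM in macrophages, 2332 to 2467 TPM in Ly6Chi monocytes, and 1966, 3254 and 2114 TPM in the 3 Ly6Clo libraries. On this scale the pump of Ly6Clo monocytes 2 lay within the range of the macrophages.

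**Figure D2:**
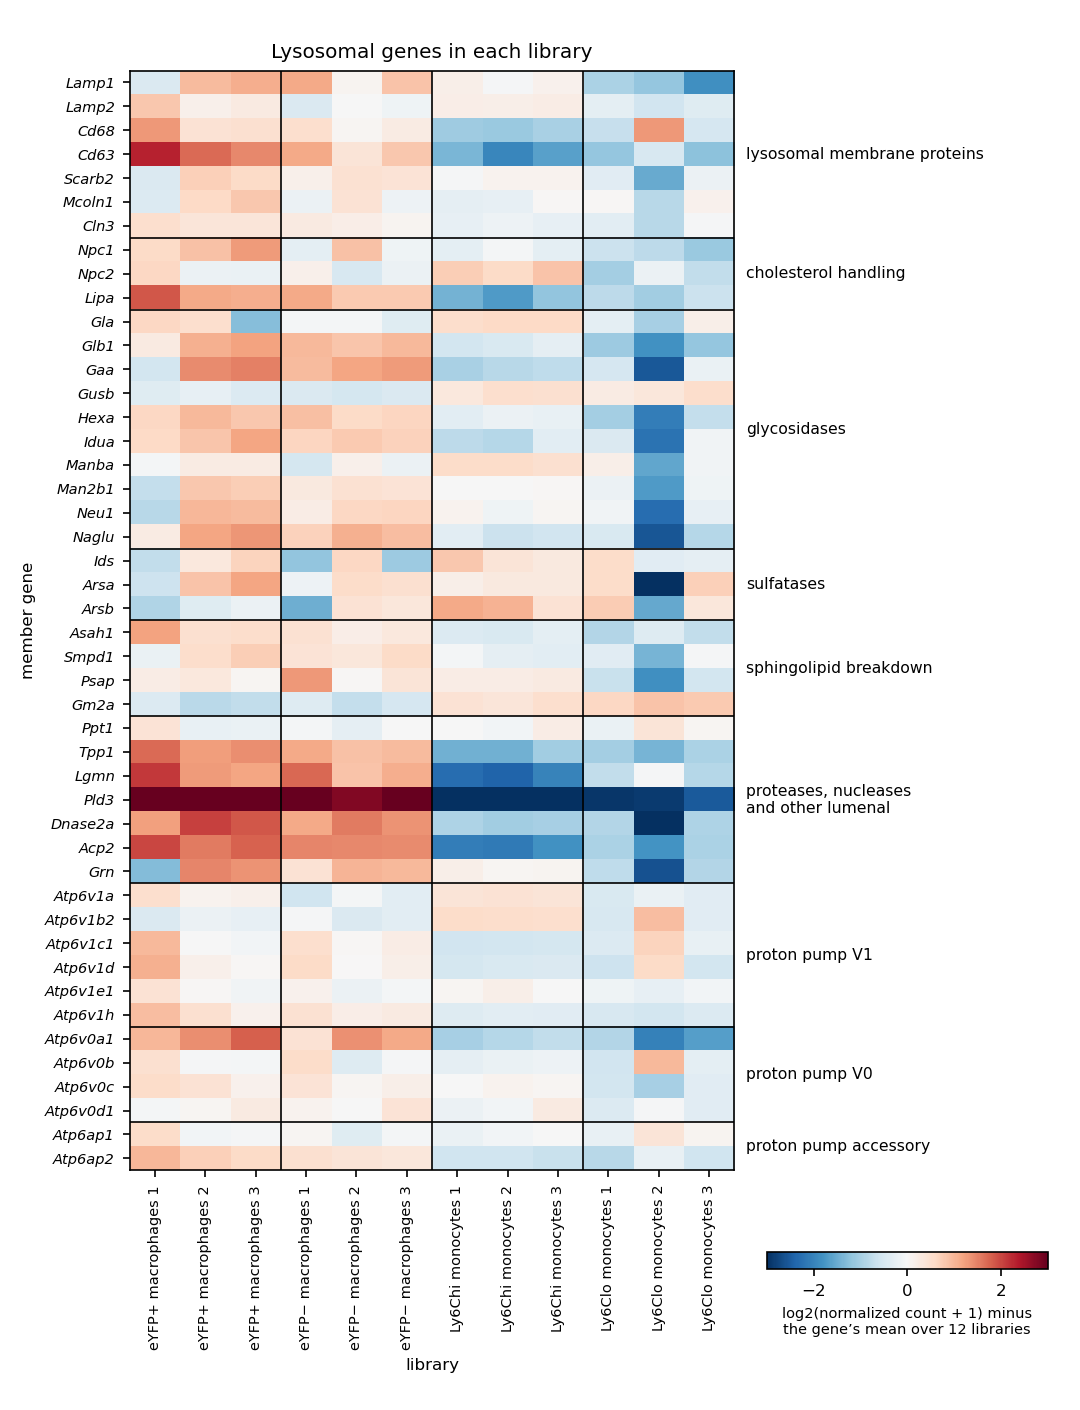
Each cell is 1 of the 46 members (rows, by role) in 1 of the 12 libraries (columns), coloured by log2(normalized count + 1) minus the mean of the gene over the 12 libraries. Pld3, Lgmn, Acp2, Tpp1, Lipa and Cd63 separate macrophages from monocytes, and Ly6Clo monocytes 2 has single dark cells, such as Arsa and Dnase2a, that the other 2 Ly6Clo libraries lack.

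Macrophages were first compared with monocytes, taking the average of eYFP+ and eYFP- cells minus that of Ly6Chi and Ly6Clo cells. Of the 46 members, 24 were higher in macrophages, 2 were lower and 20 did not pass the test (DESeq2, Benjamini-Hochberg adjusted p under 0.05 over all genes tested). Over all 22385 genes tested, 35.4% were called, 20.3% higher and 15% lower. The edgeR test called 27 members and 35.6% of all genes. Among genes with counts no lower than the lowest member, 44.7% were called in either direction. The median log2 fold change of the members was 0.73, against 0.08 over all genes. By the normalized counts, 16 members were higher without overlap between the 6 macrophage and 6 monocyte libraries (10.7% of all genes) and 2 were lower without overlap (6.94%). A correction per library for GC content and transcript length, called the GC correction here, gave 18 members higher and 4 lower, with a median of 0.35. With it 37.9% of all genes were called, 3695 higher and 4751 lower (4551 and 3364 without it), and their median was -0.16. Markers moved with this comparison: all 12 erythroid genes were called higher in macrophages, where they summed to 9032 to 35331 TPM against 365 to 1418 TPM in monocytes. Neutrophil genes summed to 123 to 2696 TPM in macrophages and 6813 to 24416 TPM in monocytes. Their part in the values of the members was not tested. In sorted bulk samples fewer cells of a type and less RNA per cell cannot be told apart.

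**Figure D3:**
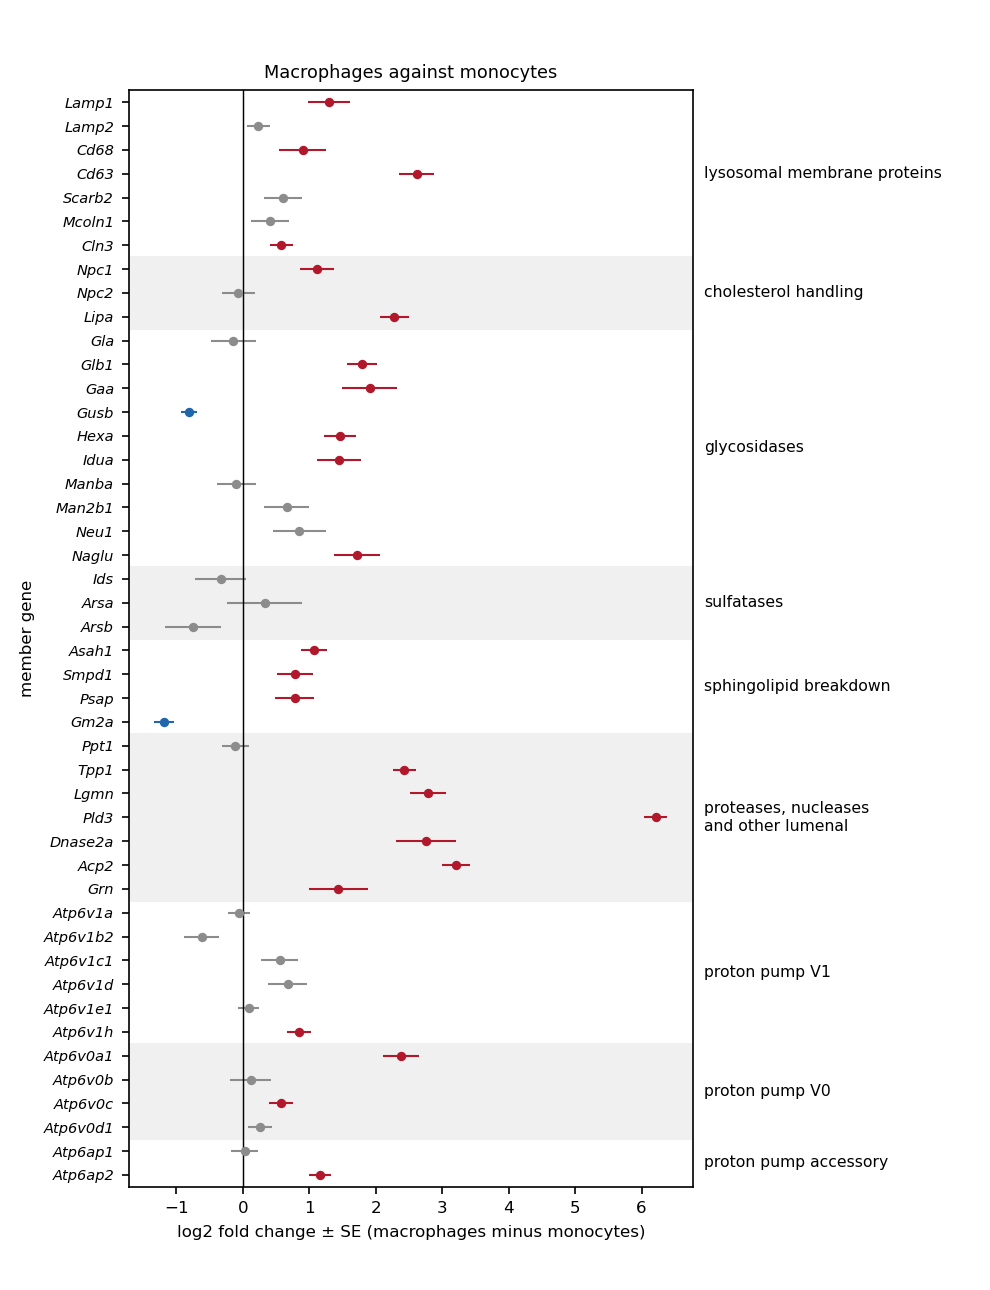
The log2 fold change ± SE of each member, macrophages minus monocytes (x axis), is shown by role (12 libraries, DESeq2); red marks members called higher, blue members called lower and grey those that did not pass. Pld3 lies farthest out at 6.21, Gusb and Gm2a are the only blue points, and most pump subunits lie between -1 and 1.

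The proteases, nucleases and other lumenal proteins had the highest median of the roles, 2.76, with 6 of 7 members higher. TPM of Pld3 was 3390, 3866 and 4009 in eYFP+ macrophages, 3752, 3194 and 3338 in eYFP- macrophages, 35.2, 30.4 and 41.8 in Ly6Chi monocytes, and 54.8, 49.9 and 66.7 in Ly6Clo monocytes. The tables list it as ENSMUSG00000003363. Each macrophage library was far above each monocyte library, and the replicates of a group lay close together. The log2 fold change of Pld3 was 6.21 ± 0.17 (SE), a ratio of 74.2 (adjusted p = 9.6e-278 in DESeq2, 5.16e-09 in edgeR). For Acp2, the lysosomal acid phosphatase gene, the 3 values of each group in the same order of groups were 216, 179 and 217 TPM, 153, 182 and 160 TPM, 13.3, 12.9 and 15.8 TPM, and 30.7, 15.2 and 28.9 TPM. The ranges of macrophages and monocytes did not overlap, with a log2 fold change of 3.20 ± 0.21 (DESeq2 adjusted p = 8.08e-53).

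Tpp1 encodes a tripeptidyl peptidase that trims peptides from their amino end. Its level was 439, 368 and 424 TPM in eYFP+ macrophages, 307, 314 and 297 TPM in eYFP- macrophages, 52.3, 52.2 and 68.3 TPM in Ly6Chi monocytes, and 74.1, 50.9 and 73.5 TPM in Ly6Clo monocytes. All macrophage libraries exceeded all monocyte libraries, and the log2 fold change was 2.43 ± 0.18 (DESeq2 adjusted p = 2.77e-41). Lgmn was at 3893, 2474 and 2426 TPM in eYFP+ macrophages, 3042, 2023 and 2134 TPM in eYFP- macrophages, 191, 177 and 231 TPM in Ly6Chi monocytes, and 597, 861 and 515 TPM in Ly6Clo monocytes. Here too the cell types did not overlap, the first library of each macrophage group was the highest of its group, and Ly6Clo cells lay between Ly6Chi cells and macrophages. Its log2 fold change was 2.79 ± 0.27 (DESeq2 adjusted p = 2.49e-23). Dnase2a, the acid DNase gene, was higher by 2.76 ± 0.45 (DESeq2 adjusted p = 9.1e-09). Grn was higher by 1.44 ± 0.44 (DESeq2 adjusted p = 0.00425), while the palmitoyl thioesterase gene Ppt1 had a log2 fold change of -0.11 and did not pass.

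Among proteins of cholesterol handling, 2 of 3 were higher. Lipa, the acid lipase gene that frees cholesterol from its esters, was at 1641, 1117 and 1133 TPM in eYFP+ macrophages, 1025, 962 and 868 TPM in eYFP- macrophages, 174, 143 and 205 TPM in Ly6Chi monocytes, and 289, 214 and 300 TPM in Ly6Clo monocytes. No macrophage library overlapped a monocyte library, and the log2 fold change was 2.28 ± 0.22 (DESeq2 adjusted p = 2.42e-24). Npc1 and Npc2 encode the membrane-bound and the soluble carrier that pass the freed cholesterol out of the lysosome. Npc1 was higher by 1.11 ± 0.26 on the log2 scale, whereas Npc2 had a log2 fold change of -0.07 and did not pass. Exons of 12 members overlap another protein-coding gene, and whether counting used strand is not stated. Ddb2 opposite Acp2 had a mean of 10.1 TPM against 102 TPM for Acp2, whereas Rmc1 opposite Npc1 had a mean of 59.3 TPM against 15.0 TPM for Npc1.

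The glycosidases, which remove sugars from glycoproteins, glycolipids and glycosaminoglycans, had a median log2 fold change of 1.15, with 5 of 10 higher and 1 lower. With the GC correction the median was 0.75, with the same counts. Gaa was higher by 1.91, Glb1 by 1.79, Naglu by 1.72, Hexa by 1.46 and Idua by 1.45 on the log2 scale. Hexa, the alpha subunit gene of beta-hexosaminidase, was the most abundant of them, at 975, 1412 and 1328 TPM in eYFP+ macrophages, 1230, 1170 and 1108 TPM in eYFP- macrophages, 527, 584 and 565 TPM in Ly6Chi monocytes, and 347, 149 and 403 TPM in Ly6Clo monocytes. Its cell types did not overlap, and its lowest level was in Ly6Clo monocytes 2. The beta-glucuronidase gene Gusb went the other way, with 107, 134 and 124 TPM in eYFP+ macrophages, 105, 120 and 115 TPM in eYFP- macrophages, 180, 205 and 202 TPM in Ly6Chi monocytes, and 182, 173 and 207 TPM in Ly6Clo monocytes. Every macrophage library was below every monocyte library, for a log2 fold change of -0.81 ± 0.13 (DESeq2 adjusted p = 2.51e-09). Neu1, Man2b1, Manba and Gla did not pass the test, with log2 fold changes of 0.85, 0.66, -0.10 and -0.14. With eYFP+ macrophages 1 and Ly6Clo monocytes 2 both left out, Neu1 was called higher by 0.79 (DESeq2 adjusted p = 7.84e-08) and Man2b1 by 0.61 (DESeq2 adjusted p = 7.40e-09), and edgeR called both there.

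Sphingolipid breakdown was the role in which each of its 4 members passed the test, 3 higher and 1 lower. Gm2a encodes the activator that presents ganglioside to beta-hexosaminidase. It was at 443, 385 and 421 TPM in eYFP+ macrophages, 465, 450 and 468 TPM in eYFP- macrophages, 831, 793 and 872 TPM in Ly6Chi monocytes, and 1012, 1059 and 1059 TPM in Ly6Clo monocytes. The 6 macrophage libraries all lay below the 6 monocyte libraries, with a log2 fold change of -1.18 ± 0.15 (DESeq2 adjusted p = 2.49e-14). Hexa and Gm2a, whose products act on the same ganglioside, were therefore called in opposite directions. The acid ceramidase gene Asah1 was higher by 1.07 and the acid sphingomyelinase gene Smpd1 by 0.78 on the log2 scale. Psap was at 2509, 3013 and 2639 TPM in eYFP+ macrophages, 5471, 2736 and 3155 TPM in eYFP- macrophages, 2610, 2600 and 2686 TPM in Ly6Chi monocytes, and 1503, 595 and 1503 TPM in Ly6Clo monocytes. The cell types overlapped, the highest value was in eYFP- macrophages 1, and the log2 fold change was 0.78 ± 0.29 (DESeq2 adjusted p = 0.0247). Without eYFP- macrophages 1 it was 0.56 (adjusted p = 0.104), and Psap and Smpd1 both fell out of the calls without eYFP+ macrophages 2 (adjusted p = 0.1002 and 0.0650) or with the GC correction (adjusted p = 0.312 and 0.122). Psap also did not pass without any 1 of the Ly6Chi libraries (adjusted p = 0.0630, 0.0602 and 0.0559), nor Smpd1 without eYFP+ macrophages 3 (adjusted p = 0.0560). None of the 3 sulfatases, Arsa, Arsb and Ids, passed in DESeq2 or edgeR, and 0 had an unadjusted p under 0.05 in either. Arsb, at a log2 fold change of -0.75 (DESeq2 adjusted p = 0.158), was called lower in macrophages without Ly6Clo monocytes 2, with both that library and eYFP+ macrophages 1 left out (-0.92, DESeq2 adjusted p = 0.0113), and with the GC correction (-1.09, DESeq2 adjusted p = 0.00223). Arsa, the sulfatase with the highest mean, was at 15.2, 48.0 and 62.6 TPM in eYFP+ macrophages, 21.5, 42.4 and 36.5 TPM in eYFP- macrophages, 27.3, 29.6 and 29.7 TPM in Ly6Chi monocytes, and 37.7, 1.12 and 39.7 TPM in Ly6Clo monocytes. The groups overlapped and Ly6Clo monocytes 2 was far below the rest, so that its log2 fold change of 0.33 ± 0.57 had a wide error.

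Of the 7 membrane proteins, 4 were higher and none was lower, with a median of 0.61. The GC correction gave a median of 0.40 and 1 higher. Cd63, a tetraspanin of late endosomes and lysosomes, was at 284, 210 and 186 TPM in eYFP+ macrophages, 130, 93.2 and 113 TPM in eYFP- macrophages, 23.1, 15.3 and 19.2 TPM in Ly6Chi monocytes, and 28.1, 40.4 and 25.3 TPM in Ly6Clo monocytes. None of the 4 groups overlapped with another, the eYFP+ libraries being highest and the Ly6Chi libraries lowest, and the log2 fold change was 2.61 ± 0.26 (DESeq2 adjusted p = 1.6e-22). The processed pseudogene Cd63-ps is 98% identical to Cd63 over 858 bases and had a mean of 411 TPM, against 97.2 TPM for Cd63, so reads may be split between them. With the reads of both summed, the log2 fold change of Cd63 was 2.62. Lamp1 was at 703, 2091 and 2434 TPM in eYFP+ macrophages, 2165, 1268 and 1936 TPM in eYFP- macrophages, 1123, 983 and 1095 TPM in Ly6Chi monocytes, and 554, 426 and 276 TPM in Ly6Clo monocytes. In TPM only eYFP+ macrophages 1 fell among the monocytes, and by the normalized counts eYFP- macrophages 2 did too. The log2 fold change was 1.30 ± 0.31 (DESeq2 adjusted p = 0.000207), or 0.75 with the GC correction (adjusted p = 0.0555). Cln3, which encodes a membrane protein lost in a juvenile storage disease, was higher by 0.58 on the log2 scale, or by 0.13 with the GC correction, where it did not pass.

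Cd68, or macrosialin, is a heavily glycosylated protein used as a macrophage marker. It was at 2745, 1689 and 1849 TPM in eYFP+ macrophages, 1620, 1443 and 1474 TPM in eYFP- macrophages, 547, 536 and 591 TPM in Ly6Chi monocytes, and 766, 2683 and 816 TPM in Ly6Clo monocytes. All macrophages exceeded 5 of the 6 monocyte libraries, and Ly6Clo monocytes 2 lay among the macrophages. Its log2 fold change of 0.90 ± 0.36 (DESeq2 adjusted p = 0.0347) kept its side of the threshold in 13 of 28 alternative settings. Of the 12 settings that left out a single library, it passed without eYFP+ macrophages 3 and without Ly6Clo monocytes 2, and in the other 10 its adjusted p was 0.0627 to 0.113. Lamp2, Scarb2, which carries glucocerebrosidase to the lysosome, and the cation channel gene Mcoln1 did not pass, with log2 fold changes of 0.23, 0.61 and 0.41.

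Of the 12 pump subunits 4 were higher in macrophages and none was lower, with a median of 0.40, against 20 higher and 2 lower of the other 34 members and a median of 0.87. The GC correction left 3 pump subunits higher and 1 lower, with a median of -0.07, and 15 of the other 34 members higher and 3 lower, with a median of 0.48. The 4 were Atp6v0a1, the membrane-anchoring a subunit, higher by 2.38 ± 0.28 (DESeq2 adjusted p = 1.76e-16), the accessory gene Atp6ap2 by 1.16 ± 0.17, Atp6v1h, a regulatory subunit of V1, by 0.84 ± 0.18, and the proteolipid gene Atp6v0c by 0.57 ± 0.18. Atp6v0c has a processed pseudogene, Atp6v0c-ps2, 99.8% identical over 465 bases, with a mean of 853 TPM against 186 TPM for the gene. With the reads of both summed the log2 fold change was 0.59 ± 0.18 (DESeq2 adjusted p = 0.00356), and with the GC correction that of the gene alone was 0.08 (adjusted p = 0.792). Atp6v0b, another proteolipid and the most abundant pump member of V0, was at 822, 660 and 674 TPM in eYFP+ macrophages, 898, 563 and 649 TPM in eYFP- macrophages, 515, 536 and 559 TPM in Ly6Chi monocytes, and 442, 1161 and 502 TPM in Ly6Clo monocytes. The highest value of all was that of Ly6Clo monocytes 2, the cell types overlapped, and the log2 fold change was 0.12.

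Other pump subunits did not pass the test. Atp6v1b2, which encodes the B2 subunit of the ATP-hydrolysing head, was at 217, 298 and 295 TPM in eYFP+ macrophages, 295, 272 and 265 TPM in eYFP- macrophages, 446, 443 and 436 TPM in Ly6Chi monocytes, and 233, 551 and 240 TPM in Ly6Clo monocytes. In TPM, Ly6Chi cells and Ly6Clo monocytes 2 lay above all macrophages, and the other Ly6Clo libraries lay within the range of the macrophages. The log2 fold change of -0.62 ± 0.27 did not pass in DESeq2 (adjusted p = 0.0568) but passed in edgeR (adjusted p = 0.0418). It was -1.23 with the GC correction (DESeq2 adjusted p = 0.00341) and -0.33 without eYFP+ macrophages 1 and Ly6Clo monocytes 2 (DESeq2 adjusted p = 0.0225). Atp6ap1, which encodes an assembly factor of the pump, was at 731, 530 and 573 TPM in eYFP+ macrophages, 536, 484 and 538 TPM in eYFP- macrophages, 448, 489 and 517 TPM in Ly6Chi monocytes, and 473, 642 and 543 TPM in Ly6Clo monocytes. Its groups overlapped, for a log2 fold change of 0.03. Atp6v1a, the catalytic subunit of the head, had a log2 fold change of -0.06.

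Without eYFP+ macrophages 1 and Ly6Clo monocytes 2, 29 members were higher and 4 lower in macrophages, with 41.2% of all genes called and a median over the members of 0.63. The members called there and not over all 12 libraries were Neu1, Man2b1, Scarb2, Atp6v1c1 and Atp6v1d, which were higher, and Arsb and Atp6v1b2, which were lower. Leaving out Ly6Clo monocytes 2 alone gave a median of 0.58. The 12 members with TCACGTG in the promoter window included 6 that were higher in macrophages and none that was lower, and their median was 0.49 on the log2 scale. Of the 29 members whose window lacked it, 15 were higher and 2 lower, with a median of 0.78.

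Next, eYFP+ and eYFP- macrophages were compared to ask whether origin goes with the transcript level of lysosomal genes. No member passed the test in either direction in DESeq2 or edgeR, while DESeq2 called 2.04% of all 21567 genes tested, 0.153% higher and 1.88% lower in eYFP+ cells, and edgeR 0.334%. At an unadjusted p under 0.05 there were 3 members in DESeq2 and 3 in edgeR. Log2 fold changes ran from -0.48 for Psap to 1.06 for Cd63, with standard errors of 0.18 to 0.80 and a median of 0.20, against 0.05 over all genes. Of the members 37 lay above 0 and 9 below, and 53.6% of all genes lay above 0. The median was 0.10 with total-count scaling, where that of all genes was -0.05, and 0.42 with the GC correction, where that of all genes was 0.15. By the normalized counts, the eYFP+ libraries were higher without overlap in 9 members (6.74% of all genes), and in none were they lower without overlap (8.5%). These 9 were Lamp2, Cd63, Cln3, Gusb, Asah1, Tpp1, Acp2, Atp6v1a and Atp6ap2, of which Cln3, Gusb and Acp2 overlapped by TPM.

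The 3 members with the lowest p were Cd63, Atp6v1a and Lamp2, all with values above 0. The libraries of Cd63 given above did not overlap, the lowest eYFP+ value being 186 TPM and the highest eYFP- value 130 TPM. Its log2 fold change was 1.06 ± 0.36 (adjusted p = 0.127 in DESeq2 and 0.264 in edgeR). It was 1.63 with the GC correction and 0.76 without eYFP+ macrophages 1 and Ly6Clo monocytes 2. Counted together with Cd63-ps, it was 1.08 ± 0.38 (DESeq2 adjusted p = 0.137). Atp6v1a was at 108, 92.2 and 101 TPM in eYFP+ macrophages and 51.9, 90.2 and 67.9 TPM in eYFP- macrophages. Its groups came close at 92.2 and 90.2 TPM, and the log2 fold change was 0.58 ± 0.23 (DESeq2 adjusted p = 0.27). Lamp2 was at 515, 374 and 428 TPM in eYFP+ macrophages and 226, 364 and 306 TPM in eYFP- macrophages. These neighbouring values, 374 and 364 TPM, were also close, and the log2 fold change was 0.62 ± 0.25 (DESeq2 adjusted p = 0.292). None of the 3 passed the test in any of 23 alternative settings, in which the adjusted p of Cd63 ranged from 0.0692 to 0.554.

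A single member was called in each of 2 alternative settings. Without eYFP- macrophages 2, Npc1 was higher in eYFP+ cells (2.8% of all genes called). With eYFP+ macrophages 1 and Ly6Clo monocytes 2 both left out, Dnase2a was higher by 0.59 ± 0.18 on the log2 scale (DESeq2 adjusted p = 0.0330, with 4.61% of all genes called), and edgeR called no member there, with 1.81% of all genes called. Markers of other cells differed between the macrophage groups. Erythroid genes summed to 9032 to 14544 TPM in eYFP+ and 22512 to 35331 TPM in eYFP- macrophages, with all 12 log2 fold changes below 0 and 2 called in DESeq2 and 0 in edgeR, with 9 at an unadjusted p under 0.05 in each. Neutrophil genes summed to 123 to 210 TPM in eYFP+ macrophages and to 241, 2696 and 828 TPM in eYFP- macrophages, with 5 of 10 called lower in DESeq2 and 1 called in edgeR. Their part in the values of the members was not tested.

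**Figure D4:**
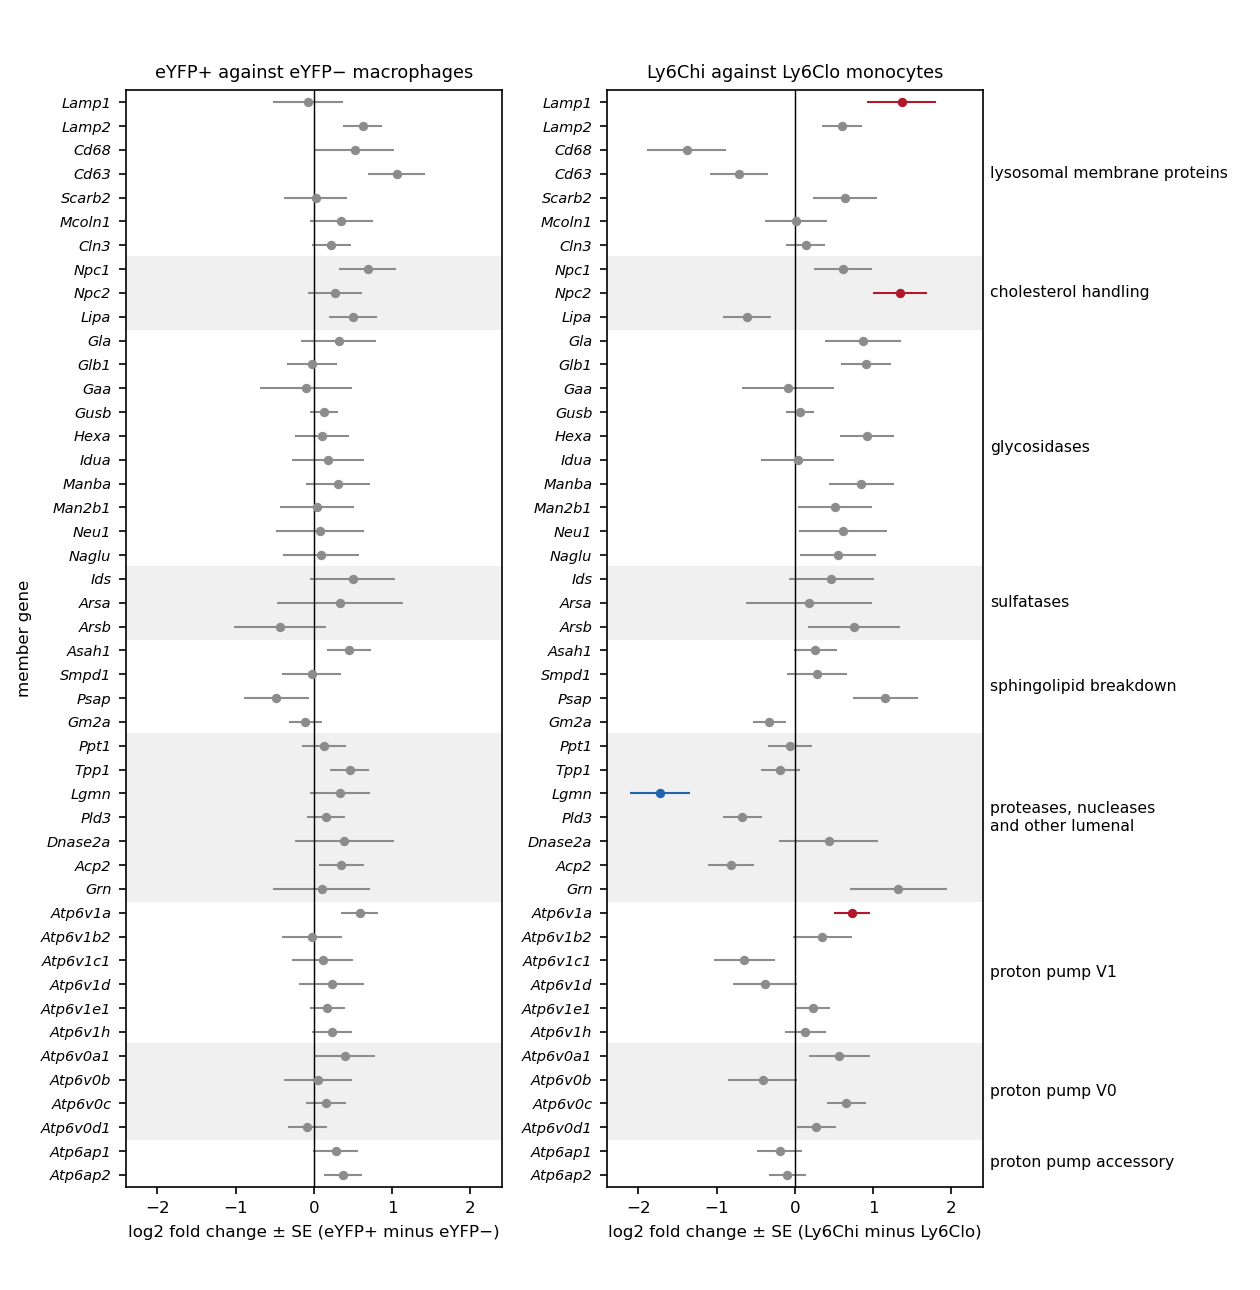
The log2 fold change ± SE of each member (x axes) is shown by role for eYFP+ minus eYFP- macrophages (left) and Ly6Chi minus Ly6Clo monocytes (right), from 1 DESeq2 fit of 12 libraries; red marks members called higher, blue members called lower. No point is coloured on the left; on the right Lamp1, Npc2 and Atp6v1a are red and Lgmn is blue.

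Ly6Chi and Ly6Clo monocytes were compared last. Of the 46 members 3 were higher in Ly6Chi cells, 1 was lower and 42 did not pass, while 8.62% of all genes were called, 3.66% higher and 4.97% lower. The edgeR test called 2 members and 4.32% of all genes. The median of the members was 0.27, against 0.02 over all genes, with 31 above 0 and 15 below. It was 0.11 with the GC correction and 0.15 without eYFP+ macrophages 1 and Ly6Clo monocytes 2. By the normalized counts, the 2 groups did not overlap in 16 members that were higher in Ly6Chi cells (16.2% of all genes) and in 8 that were lower (11.9%). The split of calls depended on the scaling: total-count scaling gave 3 higher and 4 lower (9.25% of all genes called), and the GC correction gave 2 higher, Lamp2 and Hexa, and 4 lower, Cd68, Lgmn, Pld3 and Acp2 (11.1%). A minimum of 10 counts in 3 libraries gave 7 higher and 4 lower (10.7%). Without eYFP+ macrophages 1 and Ly6Clo monocytes 2 there were 8 higher and 5 lower in DESeq2 (13.6%) and 7 higher and 4 lower in edgeR (8.53%).

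Lgmn was the only member called in all 23 alternative settings. Its Ly6Chi values of 177 to 231 TPM lay below its Ly6Clo values of 515 to 861 TPM without overlap. The log2 fold change was -1.73 ± 0.38, a ratio of 3.31 in favour of Ly6Clo cells (adjusted p = 0.000269 in DESeq2, 0.0141 in edgeR). Npc2 went the other way, with 1051, 939 and 1139 TPM in Ly6Chi monocytes and 327, 527 and 371 TPM in Ly6Clo monocytes. All Ly6Chi libraries were higher, with a log2 fold change of 1.34 ± 0.35 (adjusted p = 0.00293 in DESeq2, 0.0183 in edgeR), or 0.76 with the GC correction (adjusted p = 0.382). In macrophages Npc2 was at 918, 603 and 628 TPM (eYFP+) and 693, 540 and 601 TPM (eYFP-), between both monocyte groups. By mean TPM the order was Ly6Chi, eYFP+, eYFP-, Ly6Clo. Of the neighbours in this order the macrophage groups alone overlapped in TPM, whereas by the normalized counts all neighbours overlapped.

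Lamp1 and Atp6v1a were called less firmly. For Atp6v1a the monocyte libraries gave 103, 106 and 103 TPM (Ly6Chi) and 61.3, 65.2 and 62.2 TPM (Ly6Clo). The replicates of each group lay close together, the groups did not overlap, and the log2 fold change was 0.73 ± 0.23 (adjusted p = 0.0257 in DESeq2, 0.0541 in edgeR). The log2 fold change of Lamp1 was 1.36 ± 0.44, with all Ly6Chi libraries above all Ly6Clo libraries (adjusted p = 0.0303 in DESeq2, 0.0735 in edgeR). Neither passed without any 1 of the 3 Ly6Chi libraries or without Ly6Clo monocytes 3 (adjusted p = 0.0819 to 0.132 for Atp6v1a and 0.0905 to 0.130 for Lamp1), nor did Atp6v1a without Ly6Clo monocytes 1 (adjusted p = 0.0962). Members just short of the threshold were Glb1 and Psap with values above 0 (0.91 and 1.15, adjusted p = 0.0512 and 0.0580) and Acp2, Cd68 and Pld3 with values below 0 (-0.82, -1.38 and -0.67, adjusted p = 0.0565, 0.0627 and 0.0665, all DESeq2). The count of calls was 2 without any 1 of the Ly6Chi libraries, where 6.51%, 6.45% and 6.68% of all genes were called. It was 5 and 6 without Ly6Clo monocytes 1 and 3 (10.3% and 11.3% of all genes) and 7 without Ly6Clo monocytes 2 (9.7%).

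By role the medians of this comparison were 0.58 for glycosidases, with none called and 3 at an unadjusted p under 0.05 in DESeq2 and in edgeR, 0.61 for cholesterol handling, 0.46 for sulfatases and 0.27 for sphingolipid breakdown. They were 0.14 for membrane proteins, which was -0.15 with the GC correction, -0.19 for proteases, nucleases and other lumenal proteins, and 0.18 for the pump, which was -0.004 with the GC correction. That correction also gave 0.33 for glycosidases and for cholesterol handling, 0.15 for sphingolipid breakdown and -0.47 for proteases, nucleases and other lumenal proteins. With eYFP+ macrophages 1 and Ly6Clo monocytes 2 both left out, the median was 0.17 for glycosidases, with Glb1 and Hexa called higher and Gaa lower, and -0.05 for membrane proteins, with 2 called higher. Single members moved as well. The log2 fold change of Atp6v1b2 went from 0.35 to 0.94 (DESeq2 adjusted p = 0.665 and 3.64e-06) and that of Cd68 from -1.38 to -0.46 (DESeq2 adjusted p = 0.0627 and 0.0876).

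Markers of macrophage identity were lower in Ly6Chi cells in 9 of 12 genes, with sums of 602 to 690 TPM in Ly6Chi libraries and 3445, 1388 and 2355 TPM in Ly6Clo libraries. The 10 markers of neutrophils and their precursors summed to 16079 to 24416 TPM in Ly6Chi libraries and to 16771, 6813 and 9159 TPM in Ly6Clo libraries. Of these, 3 granule genes were higher in Ly6Chi cells, Mpo by 5.68, Elane by 8.71 and Prtn3 by 5.47 on the log2 scale. The other 7 were not called, and Retnlg and Ltf among them had values below 0 (-2.41 and -0.79). The part of either set of markers in the value of Lgmn and of the other members was not tested.

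**Figure D5:**
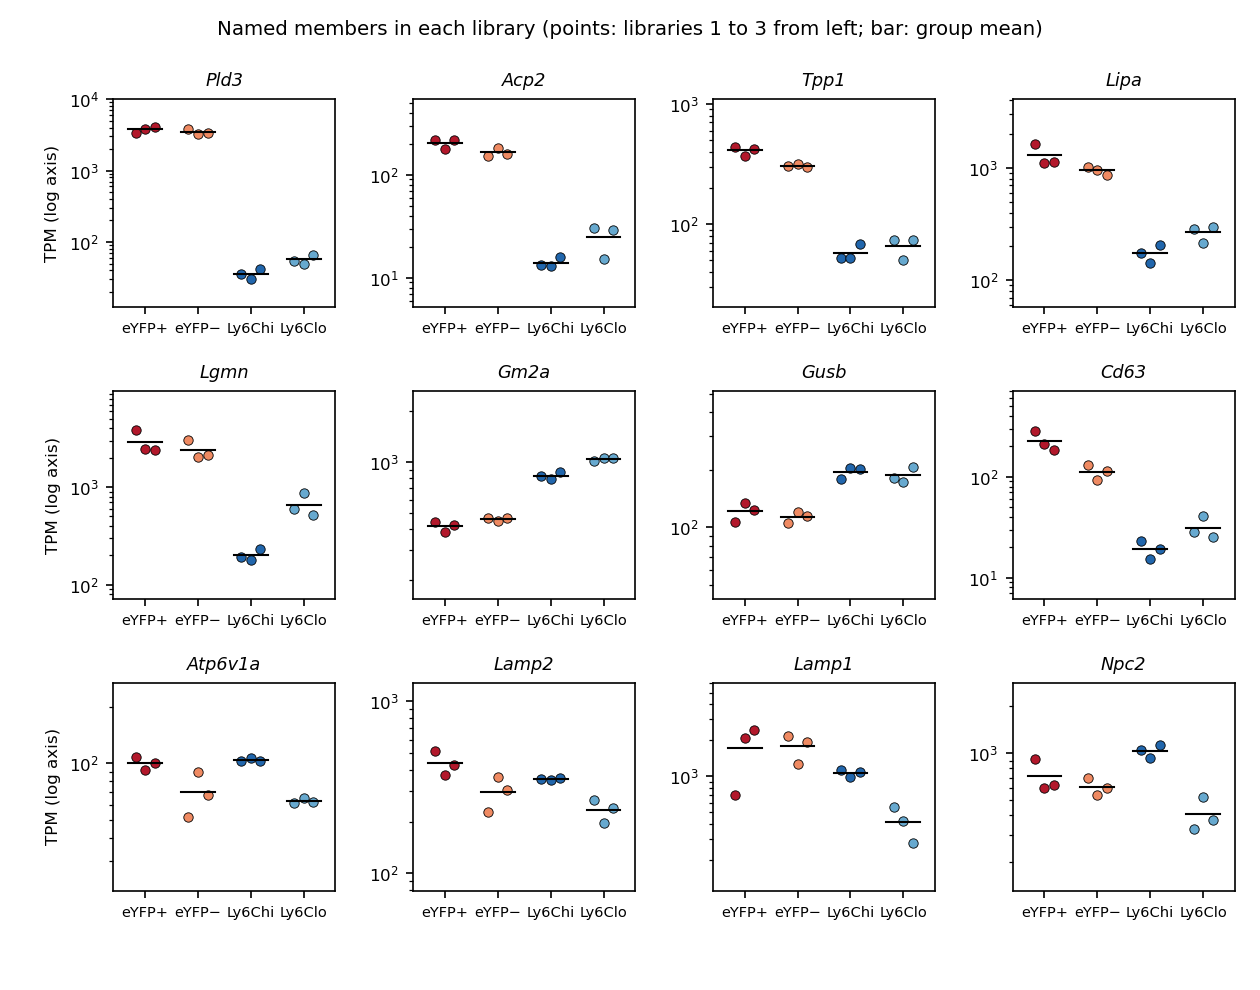
TPM on a log axis is shown in each of the 12 libraries for the 12 members named as lowest in p in a comparison; points are libraries 1 to 3 from left to right and bars are means of 3. Pld3 separates the cell types by a ratio of 74.2, Gm2a and Gusb are lower in macrophages, and Lgmn and Npc2 differ in opposite directions between the monocyte groups.

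Lysosomal genes outside the 46 were taken from 5 lists of 85 genes. None of them was called between eYFP+ and eYFP- macrophages in DESeq2 or edgeR. At an unadjusted p under 0.05 in DESeq2 there were 2 other hydrolases, 2 other membrane proteins, 1 sorting gene, 1 regulator and 0 pump subunits, and edgeR gave 3, 2, 1, 1 and 0. Of 22 other hydrolases, 13 were higher and 6 lower in macrophages than in monocytes, where 20.3% of all genes tested were higher and 15% lower. The carboxypeptidase gene Cpq was higher by 3.93 ± 0.22 (DESeq2 adjusted p = 8.54e-71), and Smpdl3a and Naaa, which encode a phosphodiesterase and an acid amidase, were lower by 2.33 ± 0.19 and 1.17 ± 0.22 on the log2 scale. Of 20 other membrane proteins 11 were higher and none was lower, and of 13 genes of enzyme sorting 6 were higher and 1 was lower. Of 13 other pump subunits 8 could be tested and none was called between macrophages and monocytes in DESeq2 or edgeR, with 1 at an unadjusted p under 0.05 in each. Among them Tcirg1, the a subunit gene known from osteoclasts, had a log2 fold change of 0.80 ± 0.35 (DESeq2 adjusted p = 0.0579).

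Between the monocyte groups, 2 of the 22 hydrolases were higher in Ly6Chi cells and 1 was lower, against 3.66% and 4.97% of all genes tested. The latter was Acp5, the tartrate-resistant acid phosphatase gene, at 508, 468 and 452 TPM in eYFP+ macrophages, 540, 519 and 514 TPM in eYFP- macrophages, 21.3, 19.7 and 27.7 TPM in Ly6Chi monocytes, and 279, 369 and 401 TPM in Ly6Clo monocytes. Ly6Clo cells thus lay just below the macrophages and far above Ly6Chi cells, with a log2 fold change of -3.94 ± 0.28 between monocytes (DESeq2 adjusted p = 6.22e-42). Atp6v0d2, a pump subunit gene also known from osteoclasts, was at 0, 0 and 0.207 TPM in Ly6Chi monocytes and 17, 32 and 29.4 TPM in Ly6Clo monocytes (DESeq2 adjusted p = 0.00201), and at no more than 1.22 TPM in macrophages. Of the membrane proteins, Cd82 was lower in Ly6Chi cells by 3.01 ± 0.31 on the log2 scale.

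Of 17 regulators of lysosome formation and of mTORC1 docking, 6 were higher and 1 was lower in macrophages, and 2 were higher in Ly6Chi cells, Tfec and Lamtor4. Over all genes tested, 20.3% were higher and 15% lower in macrophages, and 3.66% were higher in Ly6Chi cells. Tfec, a relative of Tfeb, was at 104, 104 and 111 TPM in eYFP+ macrophages, 54.3, 88.4 and 59.9 TPM in eYFP- macrophages, 16.3, 15.8 and 15.7 TPM in Ly6Chi monocytes, and 2.29, 3.23 and 2.84 TPM in Ly6Clo monocytes. The 4 groups did not overlap with each other, with log2 fold changes of 3.56 ± 0.18 between cell types (DESeq2 adjusted p = 6.67e-85) and 2.52 ± 0.26 between monocytes (DESeq2 adjusted p = 3.13e-19). Tfeb itself was lower in macrophages by 1.15 ± 0.36 on the log2 scale (DESeq2 adjusted p = 0.00533), Mitf was higher by 1.16 ± 0.31, and Tfe3 had a log2 fold change of 0.05 ± 0.40.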

How the data were processed

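RNA of 12 libraries, 4 groups of 3 named by the sample titles, was sequenced from amplified full-length cDNA. Per the study's methods, the authors demultiplexed with bcl2fastq (2.20.0.422 per the labels), processed reads with Trimmomatic, Cutadapt, Rcorrector and SortMeRNA, aligned them with segemehl to GRCm39, and deposited counts of read pairs assigned unambiguously by featureCounts. Reads shared with near-identical copies are therefore lost or split. The authors also deposited TPM, counts per gene length scaled to a common sum, and variance-stabilised values, which were not used. Levels between genes were compared in TPM only.

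The test was the Wald test of DESeq2 1.42.0 (R 4.3.3) in 1 fit of all libraries by group, with median-of-ratios scaling, independent filtering at 0.05 and calls at a Benjamini-Hochberg adjusted p under 0.05. It was also run on simulated counts with known changes, and the outcome is not given here. Alternatives were edgeR 4.0.16 quasi-likelihood tests, scaling by TMM or by total counts, and genes with at least 10 counts in 3 libraries only. Others left out independent filtering or the Cook cutoff, added a replicate block, or fitted only the libraries compared. The GC correction, with and without the block, smoothed each library's deviation from a gene's mean over all libraries (mgcv 1.9.3). Its smooth curves ran over both GC content and transcript length, so it also removed differences between groups that follow either. The remaining alternatives were limma 3.58.1 on log2(TPM + 1) or log2(TPM + 0.1), and leaving out each library. Leaving out eYFP+ macrophages 1 and Ly6Clo monocytes 2 together, and adding reads of 2 pseudogenes to their genes (found with BLAST 2.17.0), were chosen after seeing the data.

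Symbols, GC content and overlaps came from GENCODE M21, of another build, and promoters from RefSeq. The members and lists were chosen with earlier results of these data known. Values in every library are given for up to 5 members of lowest adjusted p per direction and comparison, the 3 lowest in p where few were called, and the most abundant member of each role; outside the 46, the 2 lowest in adjusted p per direction, with Tfeb, Tfe3, Mitf, Tcirg1, Atp6v0d2 and Acp5, are named.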

Additional observations from a re-analysis of the deposited data

How the results depend on the processing

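With 3 libraries a group, of which eYFP+ macrophages 1 and Ly6Clo monocytes 2 differ in GC content, small differences may go undetected, as the standard errors of up to 0.80 between macrophage groups show. Between macrophages and monocytes, 19 members (17 higher, 2 lower) kept direction and call in all 28 alternatives and 7 (Lamp1, Cd68, Cln3, Smpd1, Psap, Grn and Atp6v0c) lost the call in at least 1, always in the same direction. No called member and no median over all 46 changed sign. Medians by role did with the GC correction, for the pump between cell types from 0.40 to -0.07 and between monocytes from 0.18 to -0.004, for membrane proteins between monocytes from 0.14 to -0.15, and for sphingolipid breakdown between macrophages from -0.07 to 0.13. Glycosidases between macrophages went from 0.09 to -0.004 with total-count scaling, and with both libraries left out membrane proteins between monocytes went to -0.05. The median over all 46 between monocytes (0.27) was 0.11 with the GC correction and 0.15 with both left out. Calls between monocytes went from 3 higher and 1 lower to 2 higher and 4 lower with that correction. The causes of these changes and of those below were not tested.

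Members called between macrophage groups (0) became 1 without eYFP- macrophages 2 and 1 with eYFP+ macrophages 1 and Ly6Clo monocytes 2 both left out (0 to 1 over single libraries left out). Their median log2 fold change (0.20) was 0.10 with total-count scaling, 0.42 with the GC correction, 0.41 with the replicate block and GC correction, and 0.13 with limma on log2(TPM + 1), filtered or not, or on log2(TPM + 0.1), with 0.16 to 0.25 over single libraries left out. Members called between monocytes (4) were 2 with edgeR, no independent filtering, or limma at either pseudocount, 7 with total-count scaling, 11 with the count minimum, 1 with edgeR and the replicate block, and 13 (edgeR 11) with both libraries left out, with 2 to 7 over single libraries left out. The median between macrophages and monocytes (0.73) was 0.35 with the GC correction, 0.33 with the replicate block as well, 0.87 with limma on log2(TPM + 0.1), and 0.58 to 0.77 over single libraries left out. Calls there ranged from 23 to 30 over single libraries left out, with 6659 to 9114 called over all genes tested.

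Libraries with the same replicate number were not treated as pairs: the correlations of their deviations were 0.134, 0.0499 and 0.0466 in macrophages and -0.00237, -0.0314 and -6.09e-05 in monocytes, and not every library correlated best with its own number. Between cell types they were 0.0137, 0.0396 and 0.0670, each above those with other numbers. With the replicate block DESeq2 called 0 members between macrophage groups, 3 between monocytes (Npc2 and Psap higher, Lgmn lower) and 25 between cell types. Over all genes tested with the block, 1155 of 38066, 2239 of 35571 and 7804 of 33935 were called, respectively.

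All genes called between macrophage groups numbered 439, against 64 with edgeR, 1155 with the block, 24 with edgeR and the block, 1089 with block and GC correction, 686 with the contrast's libraries alone, 220 and 109 with limma, 227 without eYFP- macrophages 3 and 989 with both libraries left out. Between monocytes 1860 compare with 829 with edgeR, 537 with edgeR and the block, 1191 with the contrast's libraries alone, 874 to 1219 with limma, 1219 without Ly6Chi monocytes 1 and 1205 without Ly6Chi monocytes 2.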
